A study of Mus musculus with 6 samples.

Results

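The genes described here encode the SR proteins, the hnRNP proteins and the protein subunits of the spliceosomal snRNPs, in cultured mouse muscle stem cells with and without 11,12-EET. They were taken from the count table by symbol: Srsf followed by a number, symbols starting with Hnrnp or Snrp, the Sf3a and Sf3b genes, and Lsm followed by a number, with pseudogene names ending in -ps left out. This gave 66 of the 55494 rows of the table: 11 SR genes, 20 hnRNP genes, 13 Sm and snRNP genes, 9 SF3 genes and 13 LSm genes. One of the Sm and snRNP rows, Snrpert, is annotated as a processed pseudogene.

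Both groups came from wild-type mice, of an age that the labels do not state. The control group was 3 libraries of muscle stem cells (MuSCs, the resident stem cells of skeletal muscle) in culture without the lipid. The EET group was 3 libraries of such cells kept for 2 days with 11,12-EET, an epoxide that cytochrome P450 enzymes form from arachidonic acid. The labels state neither the dose nor the vehicle. Nor do they say whether the 3 libraries of a group had different animals or dishes behind them, and the p-values reflect variation among libraries that could be technical only.

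Splicing removes introns through the spliceosome, which is built from small nuclear RNAs and their proteins. A ring of Sm proteins is loaded onto the U1, U2, U4 and U5 RNAs, a related ring of LSm proteins onto U6, and the SF3a and SF3b complexes make the U2 particle bind the branch site. SR proteins mostly promote the use of an exon and hnRNP proteins often oppose it, and many genes of both classes hold exons whose inclusion sends the mRNA to nonsense-mediated decay. In muscle stem cells, entry into the cycle and differentiation are accompanied by broad changes of alternative splicing.

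Library totals ran from 30371291 to 37243882 counts. Of counts between 11 and 50, 61.3 to 62.1% were even in the controls and 65 to 65.6% with EET. With even counts this frequent, the totals may overstate the precision. Throughout the table the fold change depended on mRNA length: the deviation of a library from the mean of all 6 changed per doubling of mRNA length by 0.116, 0.236 and 0.243 log2 units in the controls and by −0.269, −0.215 and −0.111 in EET replicates 1, 2 and 3. Each result is therefore also given with this length and GC trend removed, from the longest coding transcript of a gene. For the splicing factor genes it is also given from the median transcript length where that changes the call. Summed markers of myogenic cells were 3578 to 3870 CPM (the count scaled by the TMM-normalised library size) in controls and 4076 to 4153 CPM with EET. Over all 16097 genes tested 24.6% were called higher and 23.3% lower (adjusted p under 0.05, test given below). With the trend removed the shares were 17.5% and 14.8%. Of the 12 myogenic markers 6 rose: Des (0.54), Chrdl2 (0.43), Fgfr4 (0.29), Myf5 (0.26), Myod1 (0.25) and Sdc4 (0.19). Pax7 (−0.45) and Megf10 (−0.64) fell, and 4 were not called. Summed endothelial markers were 417 to 433 CPM in controls and 290.3 to 312 CPM with EET (7 of 12 fell, 1 rose). Schwann cell markers were 439 to 447 and 329.5 to 364 CPM (6 of 8 fell, 1 rose). Fibro-adipogenic markers were 1022 to 1085 and 889.6 to 939.9 CPM (4 of 12 fell). Macrophage and leukocyte markers were 348 to 378 and 229 to 431 CPM (2 of 12 fell). For these last, EET replicate 1 stood at 431 CPM, above every control, and EET replicates 2 and 3 at 247 and 229 CPM, below every control. Most of each sum was Lyz2 alone, at 283, 145 and 128 CPM in EET replicates 1, 2 and 3. Lyz2 was at 206, 212 and 230 CPM in the controls. The sum in EET replicate 1 therefore does not show a rise of the list as a whole. After removal of the trend 2 myogenic markers were higher, neither Pax7 nor Megf10 was called, and lower calls were 8 of 12 endothelial, 5 of 8 Schwann, 4 of 12 fibro-adipogenic and 7 of 12 macrophage and leukocyte markers, with 1 higher call in each of the last 2 lists. None of these markers was at 0 in all libraries, and their part in the results below was not tested. In bulk RNA, fewer cells of a type and less RNA per cell cannot be told apart.

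Together the 66 genes held 2.15, 2.07 and 2.02% of counts in the 3 controls and 2.05, 2.13 and 2.09% with EET, and these ranges overlapped. The Sm and snRNP genes went from 0.0719 ± 0.00341% to 0.123 ± 0.0124% (mean ± SD, n = 3 each) and the LSm genes from 0.0545 ± 0.00206% to 0.0749 ± 0.00428%. The SR genes went from 0.311 ± 0.0059% to 0.352 ± 0.0157%, the SF3 genes from 0.236 ± 0.0069% to 0.2095 ± 0.00437%, and the hnRNP genes, which hold most of the counts, from 1.4 ± 0.0525% to 1.33 ± 0.0297%. The EET libraries lay wholly above the controls for the Sm and snRNP, LSm and SR shares, wholly below them for SF3, and, by a narrow margin, below them for hnRNP. No test was run on these sums, since the genes were chosen with earlier results in view.

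Of the 66 genes 65 passed the filter on low counts. Srsf12, which codes for an SR protein, did not, with 6, 0 and 0 counts in the controls and 2, 4 and 0 with EET. Among the 65, 37 rose, 8 fell and 20 were not called (adjusted p under 0.05 by the Benjamini-Hochberg method, quasi-likelihood test of edgeR). Over all 16097 genes tested 47.9% were called, 24.6% as higher and 23.3% as lower. The median log2 fold change of the 65 genes was 0.24, that of all genes tested 0.005. In 40 of the 65 all EET libraries were above all controls and in 11 all were below, against 29.6% and 28% of all genes tested (57.7% in either direction). A rise of at least 2-fold was called for 11 genes, where 6.84% of all genes tested were called at 2-fold or more in either direction. The deepest of the 8 falls was −0.50 on the log2 scale, for Hnrnpul1. Removing the trend left 26 genes higher and 11 lower, with a median of 0.05, against 17.5% higher and 14.8% lower of all genes tested.

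**Figure D1:**
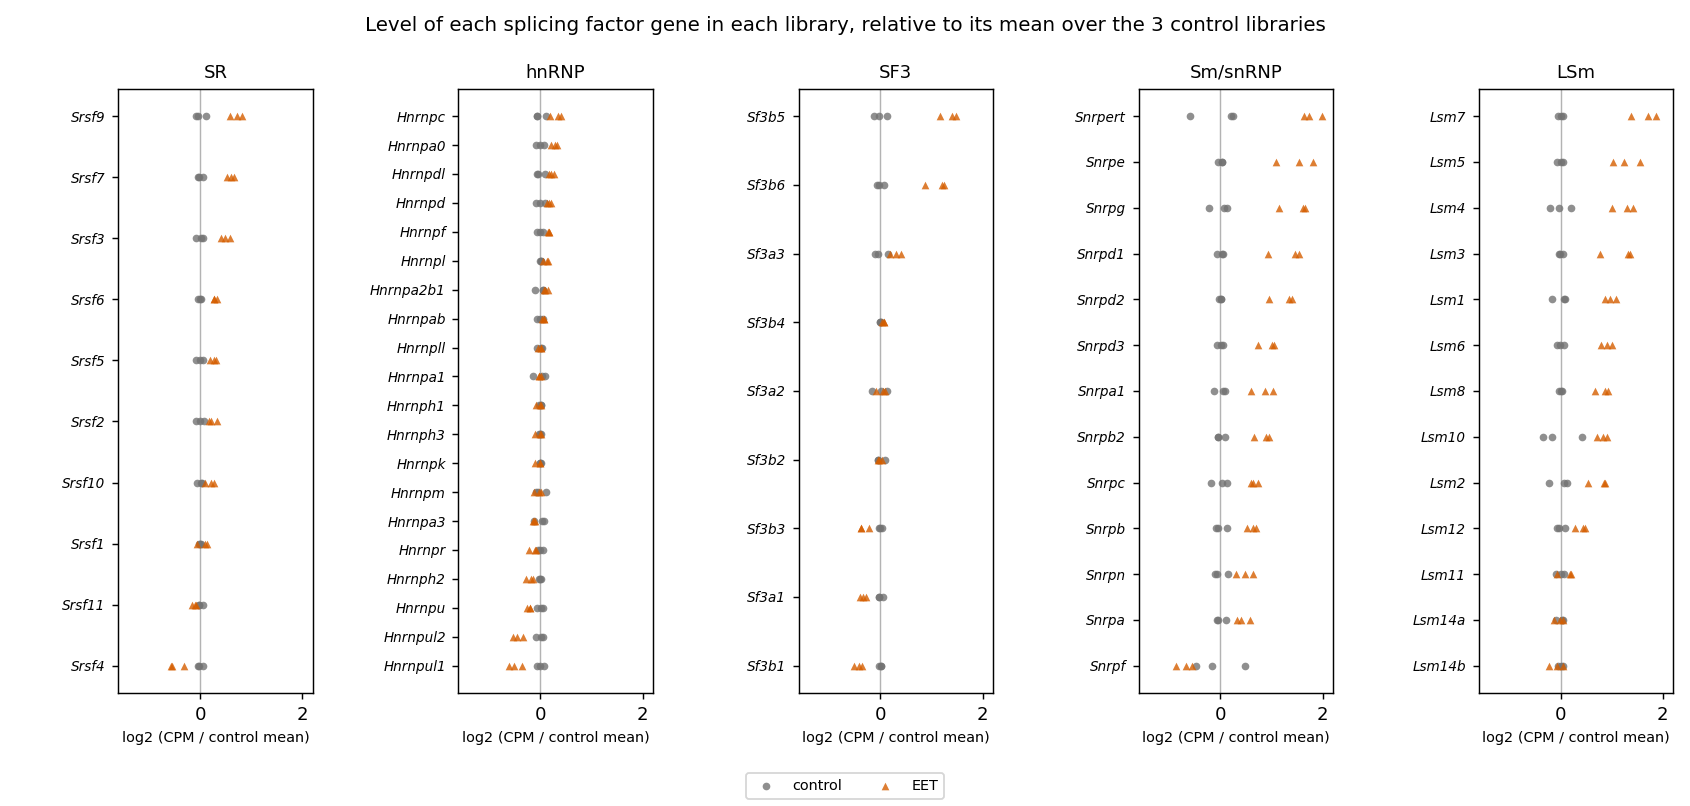
Level of each of the 65 genes that passed the filter in each library, as log2 of its CPM over its mean in the 3 controls, by family; grey circles are control and orange triangles EET libraries. The EET libraries sit to the right for nearly all Sm, snRNP and LSm genes, close to the controls for most hnRNP genes, and on both sides for SF3.

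The Sm ring genes rose, with 1 exception. This ring of 7 proteins (B, D1, D2, D3, E, F and G) is the common core of the spliceosomal snRNPs. Snrpe, for the E protein, lay at 27.1, 28.5 and 28.4 CPM in the controls and at 81.4, 97.8 and 59.2 CPM with EET. The groups were far apart and EET replicate 3 was the lowest treated library (log2 fold change 1.5 ± 0.15, adjusted p = 7.36e-06). Snrpg, for the G protein, lay at 9.93, 12.1 and 12.6 and at 36.4, 35.4 and 25.4 CPM (log2 fold change 1.49 ± 0.14, adjusted p = 2.08e-06). Snrpd1, for D1, lay at 57.2, 56.6 and 52.7 and at 162, 153 and 106 CPM (log2 fold change 1.34 ± 0.13, adjusted p = 7.36e-06). For both, EET replicate 3 was again the treated library nearest to the controls. Snrpd2, for D2, went from 37.8 ± 0.509 to 89.2 ± 14.4 CPM (log2 fold change 1.24 ± 0.10, adjusted p = 1.22e-06). Snrpd3, for D3, went from 74.4 ± 3.06 to 143 ± 16.1 CPM (log2 fold change 0.94 ± 0.08, adjusted p = 1.51e-06). Snrpb, the most abundant of the ring in CPM, codes for B and B′ and lay at 221, 196 and 189.9 and at 329, 314 and 290.3 CPM (log2 fold change 0.62 ± 0.08, adjusted p = 1.23e-05).

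These rises differed in how much remained with the trend removed. Snrpd3, whose longest coding transcript has 3036 bp, stayed at 0.97 (log2 fold change with the trend removed), Snrpg at 0.74, Snrpd2 at 0.70, Snrpe at 0.46 and Snrpd1 at 0.45, all still called. Snrpb turned to −0.075 and was not called (adjusted p = 0.212), but with the median transcript length it was called higher at 0.18 (adjusted p = 0.00835). Snrpe and Snrpd1 were at 1.20 and 1.02 by that measure, so the size of the rise in the shortest mRNAs depended on which transcript length was used.

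Snrpf, for the F protein of the same ring, was almost not counted. It held 14, 11 and 18 counts in the controls and 9, 7 and 9 with EET, or 0.412 ± 0.144 and 0.253 ± 0.028 CPM (log2 fold change −0.68 ± 0.52, adjusted p = 0.315). The EET libraries lay below the controls, and with the trend removed it was called lower at −1.53 (adjusted p = 0.0421), but not with the median transcript length (−0.93, adjusted p = 0.188). By GENCODE M21, 85.4% of its exon bases lie under exons of Ccdc38 and 4933408J17Rik on the opposite strand (GRCm38, chr10:93583029-93589706). Matched on either strand, 78.3% of the 100-base stretches of its mRNA occur in transcripts of other genes. Ccdc38 and 4933408J17Rik are among these, so the 2 shares are in part the same overlap. Whether strand was used in counting is not known from the labels, so the level of Snrpf is uncertain and the part of this overlap in it was not tested.

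**Figure D2:**
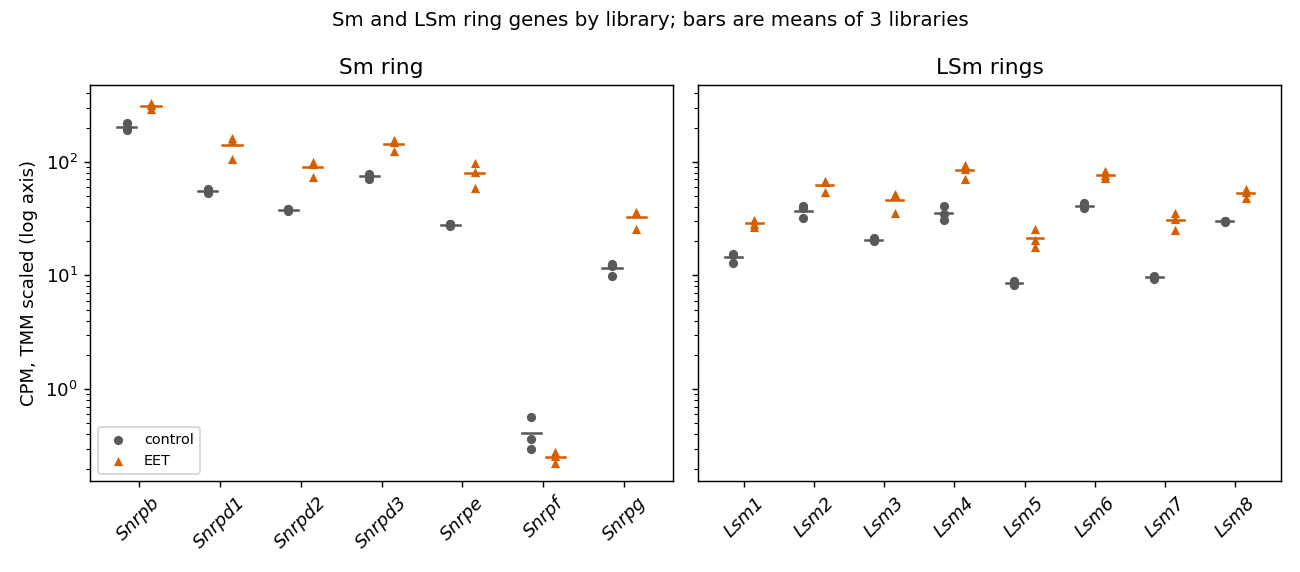
CPM of the Sm ring genes (left) and of the genes of the LSm rings (right) in each library on a log axis; points are libraries and bars the means of 3 libraries. Every ring gene but Snrpf lay higher in the 3 EET libraries, and Snrpf stood below 1 CPM in all 6.

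The particle-specific snRNP genes rose as well. Snrpa and Snrpc code for the A and C proteins of the U1 particle, which recognises the 5′ splice site. Snrpa went from 115 ± 7.87 to 156 ± 13.9 CPM (log2 fold change 0.44 ± 0.08, adjusted p = 0.000288), and with the trend removed it was called in the other direction, at −0.14 (adjusted p = 0.0327); the median transcript length gave 0.051 (adjusted p = 0.489). Snrpc rose by 0.66 on the log2 scale and lost its call with the trend removed (−0.11), while the median transcript length left it called at 0.29. Snrpa1 and Snrpb2, for the A′ and B″ proteins of the U2 particle, rose by 0.85 and 0.84 and stayed called at 0.21 and 0.56. Snrpn, an imprinted paralogue of Snrpb that codes for SmN, was far rarer, at 3.44, 3.51 and 4.1 CPM in the controls and 5.73, 5.15 and 4.54 CPM with EET (log2 fold change 0.48 ± 0.17, adjusted p = 0.0328). Its call was lost in 11 of the 18 alternatives that tested it, among them leaving out control replicate 1 or 2 or EET replicate 1 or 2 and DESeq2; 27.3% of its exon bases are shared with other genes on the same strand, among them Snurf. Snrpert, the row annotated as a pseudogene, went from 1.25 ± 0.365 to 4.31 ± 0.553 CPM (log2 fold change 1.77 ± 0.25, adjusted p = 3.76e-05), the highest log2 fold change of the 65 rows. Of its 100-base stretches 43.3% occur in Snrpe, so its counts are uncertain. It was not called with the trend removed (0.22, adjusted p = 0.513) and was called at 1.49 with the median length measure.

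LSm genes of the rings rose without exception. LSm2 to LSm7 are shared by a nuclear ring on U6, completed by LSm8, and a cytoplasmic ring completed by LSm1, which helps to remove the cap of mRNAs before decay. Lsm7 lay at 9.93, 9.32 and 9.63 CPM in the controls and at 35.2, 31.5 and 25.1 CPM with EET (log2 fold change 1.67 ± 0.12, adjusted p = 6.95e-07). Lsm5 lay at 8.75, 8.95 and 8.24 and at 20.5, 25.5 and 17.6 CPM (log2 fold change 1.29 ± 0.13, adjusted p = 3.65e-06). In both, even the lowest EET library, replicate 3, stood far above the highest control. Lsm4 went from 35.4 ± 4.94 to 84.1 ± 11.7 CPM (log2 fold change 1.25 ± 0.11, adjusted p = 2.17e-06). Lsm3 went from 20.6 ± 0.55 to 46.3 ± 9.62 CPM (log2 fold change 1.17 ± 0.13, adjusted p = 7.51e-06). Lsm6 went from 41.1 ± 1.93 to 77 ± 5.8 CPM (log2 fold change 0.90 ± 0.08, adjusted p = 1.56e-06). Lsm2, the smallest rise of the 6 shared subunits, went from 37.1 ± 4.71 to 62.9 ± 7.61 CPM (log2 fold change 0.76 ± 0.11, adjusted p = 4.84e-05). Lsm8 rose by 0.83 and Lsm1 by 0.98 on the log2 scale, so the subunits that tell the 2 rings apart moved the same way.

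With the trend removed Lsm6, Lsm7, Lsm1 and Lsm4 remained called at 1.07, 0.94, 0.92 and 0.37. Lsm5, Lsm3, Lsm8 and Lsm2 did not (0.12, 0.16, −0.087 and −0.14), though with the median transcript length all 4 were called, at 1.05, 0.78, 0.52 and 0.30. Lsm10 and Lsm11 code for the subunits particular to the U7 particle, which processes histone mRNAs: Lsm10 rose by 0.82 from 5.6 CPM in the controls and lost the call with the trend removed (−0.019), and Lsm11 was not called as counted (0.11, adjusted p = 0.438) but was called at 0.64 with the trend removed. Outside the rings, Lsm12 rose by 0.40 (93.4 ± 5.79 to 123 ± 9 CPM, adjusted p = 0.000474; 0.22 with the trend removed). Lsm14a, whose protein sits in cytoplasmic granules of stored mRNA, went from 167 ± 8.52 to 163 ± 10.5 CPM (log2 fold change −0.034 ± 0.07, adjusted p = 0.731), with overlapping groups, and was called lower at −0.31 with the median transcript length only. Lsm14b was not called in any of the 3 fits (−0.078 as counted).

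SF3 subunits moved in opposite directions. SF3B1 is the large scaffold of the branch site complex, and SF3B5 and SF3B6 are among its smallest subunits. Sf3b5 lay at 32.6, 29.4 and 27.5 CPM in the controls and at 79, 83.1 and 67 CPM with EET (log2 fold change 1.36 ± 0.10, adjusted p = 6.36e-07). Sf3b5 is a gene of 1 exon at chr10:13005343-13009183 (GRCm38), with 1 annotated transcript of 3841 bp. It was at 1.53 with the trend removed and at 1.63 with the median length, the highest value of the 65 genes in both fits. Both values depend on that 1 annotated length, so the second fit is no separate check. Sf3b6, whose protein touches the branch site adenosine, lay at 40.7, 43.3 and 39.7 and at 97.1, 94.8 and 75.2 CPM (log2 fold change 1.11 ± 0.10, adjusted p = 1.27e-06; 0.45 with the trend removed). The groups of both genes were widely separated, with EET replicate 3 the lowest treated library.

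Sf3b1 itself lay at 553, 558 and 542 CPM in the controls and at 388, 415 and 430.1 CPM with EET (log2 fold change −0.42 ± 0.06, adjusted p = 8.2e-05). Sf3b3 lay at 521, 505 and 509 and at 393, 396 and 438 CPM (log2 fold change −0.32 ± 0.07, adjusted p = 0.000918). No EET library of either gene reached the lowest control. Sf3a1 also fell, by 0.34 on the log2 scale. These 3 genes have mRNAs of 4525 to 6195 bp and none was called with the trend removed (−0.0053, −0.028 and 0.0099). Sf3a3 rose by 0.30, also a call lost with the trend removed (−0.026). Sf3a2, Sf3b2 and Sf3b4 were not called as counted (0.024, −0.011 and 0.059), and with the trend removed Sf3a2 and Sf3b4 were called lower at −0.25 and −0.26; with the median length this held for Sf3a2 (−0.58) and not for Sf3b4 (−0.13).

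Of 10 SR genes tested 7 rose and 1 fell, against 24.6% higher and 23.3% lower of all genes tested. Srsf7, whose protein also takes part in mRNA export and 3′ end choice, lay at 191, 179 and 179 CPM in the controls and at 278, 290.1 and 264 CPM with EET (log2 fold change 0.60 ± 0.07, adjusted p = 5.87e-06). Srsf3, for the smallest SR protein and an adaptor of mRNA export, lay at 479, 466 and 436 and at 643, 689.6 and 611 CPM (log2 fold change 0.49 ± 0.07, adjusted p = 4.04e-05). In both the groups were separated by more than their own range. Srsf9 went from 76 ± 5.58 to 124 ± 9.68 CPM, the largest rise among SR genes (log2 fold change 0.71 ± 0.08, adjusted p = 7.01e-06), but its mRNA has only 1162 bp and with the trend removed it was at 0.0074 (adjusted p = 0.933; 0.23, adjusted p = 0.00494, with the median length). Srsf7 and Srsf3 stayed called at 0.43 and 0.37, and so did Srsf6 (0.29 as counted, 0.39 with the trend removed) and Srsf10 (0.20 and 0.32). Srsf10 is an SR-like protein that represses splicing when dephosphorylated; its call as counted was lost without control replicate 1, 2 or 3 or EET replicate 2.

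Srsf5 went from 332 ± 15.4 to 397 ± 16.3 CPM (log2 fold change 0.26 ± 0.07, adjusted p = 0.00474) and was called lower with the trend removed, at −0.19 (adjusted p = 0.00149), but not with the median length (0.072, adjusted p = 0.272). Srsf2 rose by 0.24 and lost its call with the trend removed (−0.054) and without control replicate 2 or EET replicate 2. Srsf1, the founding member of the family and the most abundant SR mRNA in CPM, lay at 758, 747 and 729.6 CPM in the controls and at 709, 819 and 795 CPM with EET. Its groups overlapped (log2 fold change 0.057 ± 0.07, adjusted p = 0.533), while with the trend removed it was called at 0.38, or 0.19 with the median length, relative to mRNAs of like length (5362 bp). Srsf11 was not called (−0.11), except with the median length (−0.26). Srsf4 fell, from 30.5, 32 and 30 CPM to 20.9, 20.8 and 24.9 CPM (log2 fold change −0.48 ± 0.10, adjusted p = 0.000766), and stayed called at −0.68 with the trend removed and −0.58 with the median length. Its level is uncertain without a stranded count: Srsf4 has 6 exons at chr4:131873617-131901706, and 43% of its exon bases lie under Gm12992 on the other strand.

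Of the 20 hnRNP genes 5 rose, 4 fell and 11 were not called, close to the 24.6% higher and 23.3% lower of all genes tested. No log2 fold change of an hnRNP gene passed 0.5 in size. This is the family with the most abundant mRNAs. Per kb of the longest coding transcript Hnrnpa2b1 and Hnrnpa1 led in the controls, at 895 and 857 CPM per kb, ahead of Hnrnpab at 401 and Hnrnpk at 364 CPM per kb, against 212 for Srsf5, 174 for Snrpb, 138 for Sf3b2 and 56.6 for Lsm14a, the highest of the other families. Hnrnpa1, whose protein counteracts SR proteins at many exons, lay at 1757, 1678 and 1498 CPM in the controls and at 1611, 1667 and 1622 CPM with EET, all within the control range (log2 fold change −0.0098 ± 0.07, adjusted p = 0.925). With the trend removed it was called lower at −0.30 (adjusted p = 3.43e-05), and with the median length it was not (−0.14, adjusted p = 0.0517). Other annotated genes share 42.2% of its 100-base stretches, so its level is uncertain.

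The hnRNP genes that fell include both U-like genes. Hnrnpul1 lay at 270.4, 299 and 283 CPM in the controls and at 199, 185 and 221 CPM with EET (log2 fold change −0.50 ± 0.08, adjusted p = 7.58e-05). Hnrnpul2 lay at 295, 288 and 267 and at 196, 207 and 224 CPM (log2 fold change −0.44 ± 0.07, adjusted p = 0.000122). The EET libraries of both were below every control. Hnrnpul1 stayed called at −0.33 with the trend removed and Hnrnpul2 was no longer called (−0.067). Hnrnpul1 is a gene of 15 exons at chr7:25721165-25754757. Hnrnpu, for the nuclear scaffold protein SAF-A and the highest hnRNP mRNA in CPM, lay at 2065, 2006 and 1897 and at 1659, 1726 and 1728 CPM (log2 fold change −0.22 ± 0.06, adjusted p = 0.00966). Its call was lost without control replicate 2, and with the trend removed the direction turned (0.28, adjusted p = 0.0729; 0.35, adjusted p = 0.0233, with the median length). Hnrnph2 fell by 0.19 and lost the call with the trend removed (−0.037) and without control replicate 2 or 3 or EET replicate 1, while with the median length it was called lower at −0.16 (adjusted p = 0.0164).

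Hnrnpc, whose protein binds uridine tracts and masks cryptic exons, rose from 571, 511 and 510.1 CPM to 708, 672 and 609.6 CPM (log2 fold change 0.32 ± 0.07, adjusted p = 0.00226) and stayed called at 0.27 with the trend removed. Hnrnpa0 and Hnrnpdl rose by 0.27 and 0.21 and also stayed called (0.20 and 0.17); the call of Hnrnpdl was lost without control replicate 2 or 3 or EET replicate 2. Hnrnpd, for the mRNA decay factor AUF1, and Hnrnpf rose by 0.17 each, calls that were both lost without control replicate 2 or 3 or EET replicate 1 or 2. With the trend removed Hnrnpd was at 0.64 and called, and Hnrnpf at 0.04 and not called. With the median length neither was called (0.047, adjusted p = 0.527, and −0.071, adjusted p = 0.271). The other 11 ranged from −0.14 (Hnrnpr) to 0.12 (Hnrnpl) and were not called. With the trend removed by the longest transcript, Hnrnpa1, Hnrnpa2b1, Hnrnph1 and Hnrnph3 among them were called lower (−0.30, −0.27, −0.15 and −0.23) and Hnrnpm and Hnrnpr higher (0.16 and 0.74). By the median length these calls were lost, except for Hnrnpm, which was called in the other direction (−0.21); Hnrnpa3 and Hnrnpk were then called lower (−0.27 and −0.30) and Hnrnpll higher (0.16). Hnrnpr has an annotated transcript of 21452 bp, and its value with the trend removed was 0.74 from that length and −0.071 from the median length.

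**Figure D3:**
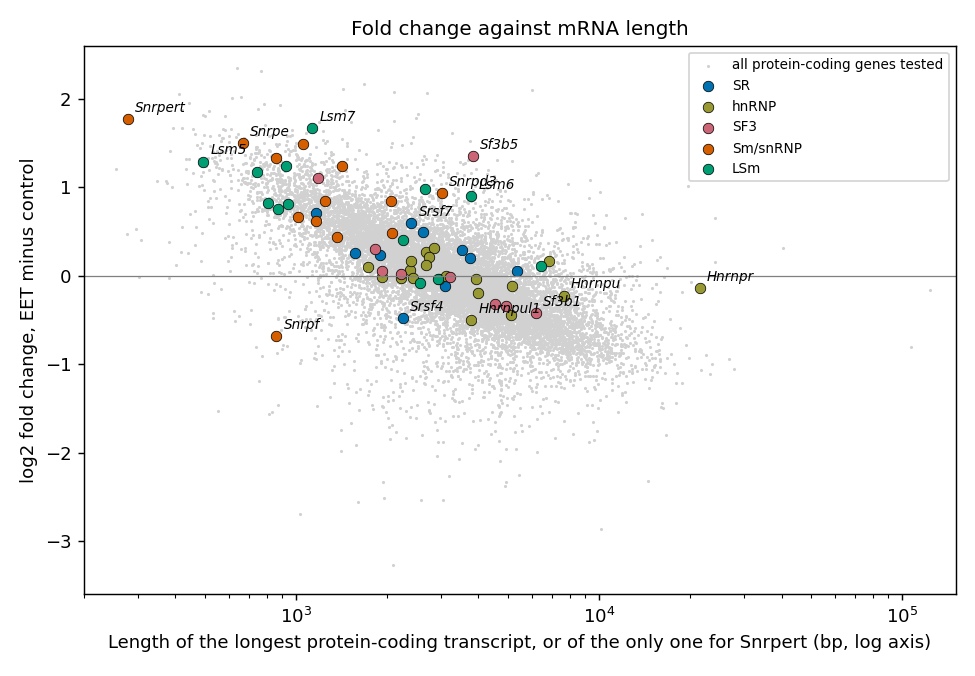
log2 fold change (EET minus control) against the length of the longest coding transcript on a log axis; grey dots are the protein-coding genes tested and coloured points the splicing factor genes by family. The families follow the slope of all genes, with Sf3b5, Lsm6 and Snrpd3 above it and Srsf4, Hnrnpul1 and Snrpf below it.

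Family and mRNA length went together. The median length of the longest coding transcript was 1161 bp for the Sm and snRNP genes tested and 1129 bp for the LSm genes, against 2510.5 bp for SR, 2908.5 bp for hnRNP and 3222 bp for SF3 genes. The Spearman correlation of log2 fold change with length was −0.63 over the 65 genes and −0.69 over the 13801 protein-coding genes tested, which share the same 6 libraries. Under 1500 bp 18 of 19 splicing factor genes rose, with a median of 1.11, and 1286 of 1793 protein-coding genes, with a median of 0.74. From 1500 bp to below 3000 bp 13 of 25 rose and 1 fell (median 0.17), against 1809 and 184 of 4497 (median 0.23). From 3000 bp 6 of 21 rose and 7 fell (median −0.04), against 531 and 3386 of 7511 (median −0.26). EET replicate 3, the treated library with the weakest length slope, was the lowest treated library for 33 of the 37 genes that rose. It was so for all 11 that rose at least 2-fold. The same count was not made over all genes called higher, so this order cannot be read as particular to splicing factor genes. The part of EET replicate 3 in these differences was not tested.

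The genes called alike with either length measure are fewer. As counted, with the trend removed and with the median transcript length, 21 genes were higher in all 3 fits and 2 were lower. Over all 16097 genes tested 1822 were higher and 1501 lower in the first 2 of these fits, against 22 and 2 of the 65. For all genes the number over all 3 fits was not computed. The 21 are 7 Sm and snRNP genes (Snrpe, Snrpg, Snrpd1, Snrpd2, Snrpd3, Snrpa1 and Snrpb2), 5 LSm genes (Lsm1, Lsm4, Lsm6, Lsm7 and Lsm12), 4 SR genes (Srsf3, Srsf6, Srsf7 and Srsf10), 3 hnRNP genes (Hnrnpa0, Hnrnpc and Hnrnpdl) and Sf3b5 and Sf3b6. The 2 lower genes are Srsf4 and Hnrnpul1. For Hnrnpa0, Sf3b5, Snrpa1, Snrpd2, Snrpg, Srsf3 and Srsf4 only 1 coding transcript is annotated. Their longest and median lengths are the same, so the 2 trend fits are no separate check for them. When the longest coding transcript was used to remove the trend, some calls were lost and others gained. Of all genes tested 17.5% were then higher and 14.8% lower. Of 13 Sm and snRNP genes 7 were then higher, all 7 also higher as counted, and 2 were lower, Snrpa and Snrpf, neither lower as counted. Of 13 LSm genes 6 were higher, 5 of them also as counted. Of 10 SR genes 5 were higher, 4 of them as counted, and 2 were lower, 1 of them as counted. Of 20 hnRNP genes 6 were higher, 4 of them as counted, and 5 were lower, 1 of them as counted. Of 9 SF3 genes the 2 that were higher were so as counted, and the 2 that were lower were not.

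**Figure D4:**
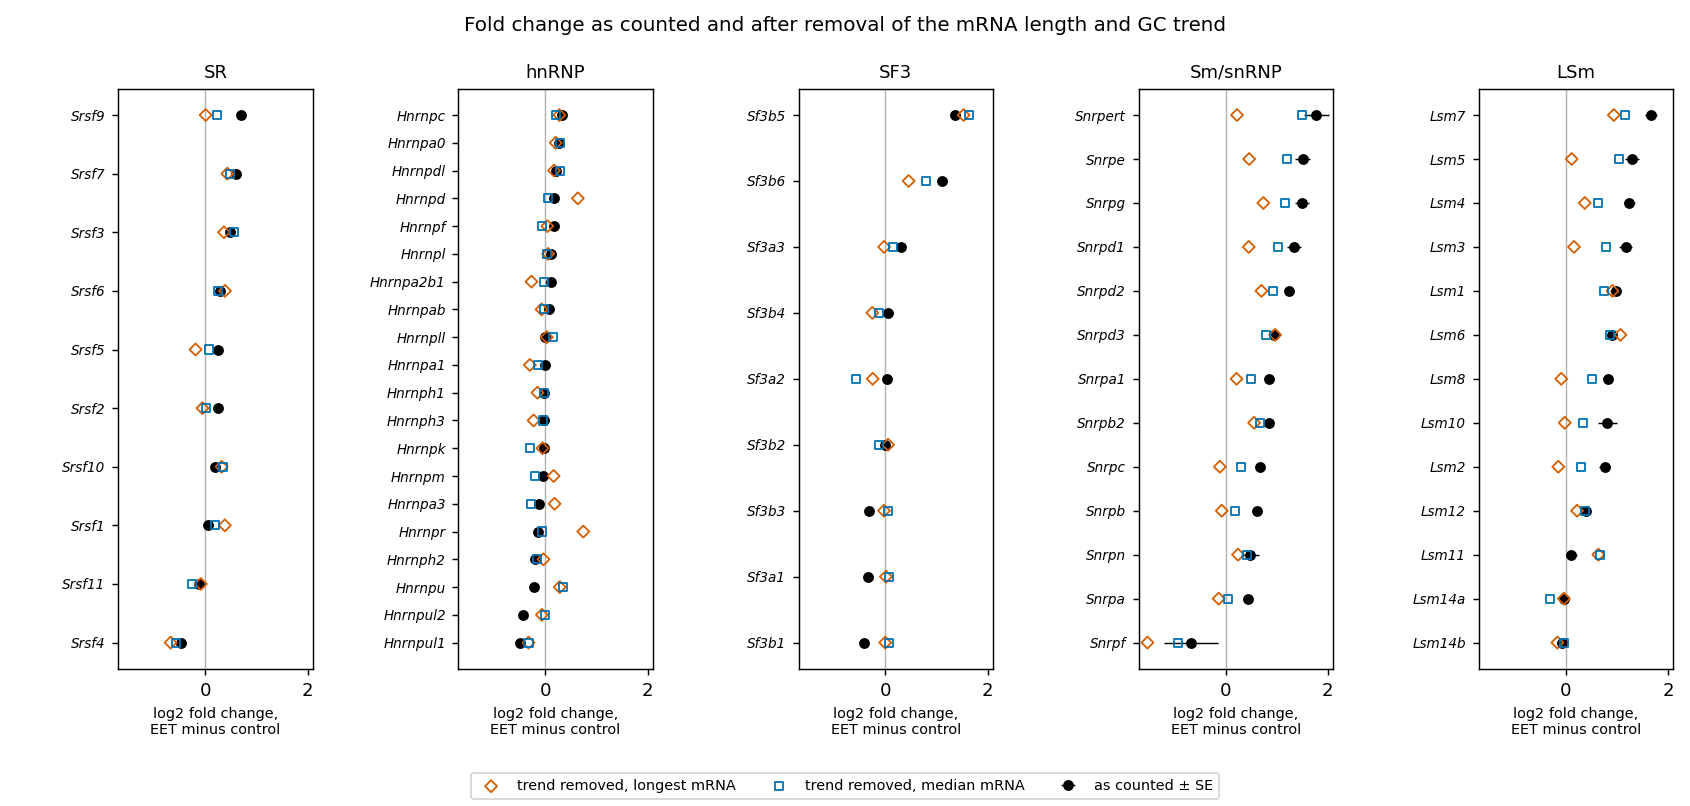
log2 fold change (EET minus control) of each gene as counted (black, with its standard error), with the length and GC trend removed from the longest coding transcript (orange diamonds) and from the median transcript length (blue squares). Sf3b5, Lsm6, Snrpd3 and Srsf7 stay to the right and Srsf4 and Hnrnpul1 to the left in all 3 fits; the short LSm and Sm genes spread most between them.

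Genes of the families differ in annotated decay isoforms, which gene-level counts cannot separate. GENCODE M21 lists a transcript marked for nonsense-mediated decay for 9 of 11 SR and 10 of 20 hnRNP genes, against 4 of 13 Sm and snRNP, 4 of 13 LSm and 1 of 9 SF3 genes. Reads that fit more than 1 gene also touch these families. Matched on either strand, over 20% of the 100-base stretches of 13 genes occur in transcripts of other genes. Among the 13 are Hnrnpf at 56.3%, Srsf2 at 30.6%, Lsm5 at 31.6% and Srsf3 at 20.7%. For 25 genes no stretch occurs elsewhere. The stretches of Srsf2 occur in Mettl23 and Mfsd11, whose exons overlap Srsf2 on the other strand, so a stranded count could tell them apart.

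The promoters of the splicing factor genes were searched for short motifs. RefSeq windows (GRCm38.p6) were found for 56 of the 66 genes, and the 250 bases before the start were searched on both strands. CCGGAAG, a core bound by ETS factors, was in 16 of 56 (28.6%), against 13% of 10890 protein-coding genes tested, and by family in 6 of 7 SF3, 4 of 11 SR, 3 of 10 Sm and snRNP, 2 of 18 hnRNP and 1 of 10 LSm windows, the last being that of Lsm5. A form of the NRF1 site (GCGC, any 2 bases, GCGC) was in 17.9% against 10.2%, CCAAT, bound by NF-Y, in 44.6% against 36%, and GGGCGG, bound by Sp1, in 67.9% against 58.3%. The aryl hydrocarbon receptor core TNGCGTG was in 1 window, of Hnrnpd, against 6.51%. The 4 windows shown are of Snrpb2 and Lsm5, which rose, and of Srsf4 and Hnrnpul1, which fell, each 5′ to 3′ on the strand of the gene. Capitals mark the ETS, NRF1 and NF-Y letters on either strand. A match is a run of letters and not a shown binding site.
Snrpb2 (chr2:143062819-143063068, plus strand): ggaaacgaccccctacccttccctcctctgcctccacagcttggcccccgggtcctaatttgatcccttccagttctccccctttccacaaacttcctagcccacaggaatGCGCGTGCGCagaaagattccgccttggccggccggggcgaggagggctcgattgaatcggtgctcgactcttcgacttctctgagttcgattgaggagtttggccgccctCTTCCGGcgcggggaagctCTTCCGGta
Lsm5 (chr6:56704700-56704949, minus strand): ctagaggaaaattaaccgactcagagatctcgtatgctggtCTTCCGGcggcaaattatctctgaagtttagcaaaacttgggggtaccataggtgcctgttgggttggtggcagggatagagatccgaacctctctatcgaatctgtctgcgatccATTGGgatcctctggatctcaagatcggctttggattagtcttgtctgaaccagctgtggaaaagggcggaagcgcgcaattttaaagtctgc
Srsf4 (chr4:131873387-131873636, plus strand): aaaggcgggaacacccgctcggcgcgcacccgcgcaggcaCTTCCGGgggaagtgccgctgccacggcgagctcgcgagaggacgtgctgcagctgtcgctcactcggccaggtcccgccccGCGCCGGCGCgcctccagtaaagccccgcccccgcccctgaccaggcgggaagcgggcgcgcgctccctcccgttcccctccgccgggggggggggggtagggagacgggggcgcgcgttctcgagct
Hnrnpul1 (chr7:25754760-25755009, minus strand): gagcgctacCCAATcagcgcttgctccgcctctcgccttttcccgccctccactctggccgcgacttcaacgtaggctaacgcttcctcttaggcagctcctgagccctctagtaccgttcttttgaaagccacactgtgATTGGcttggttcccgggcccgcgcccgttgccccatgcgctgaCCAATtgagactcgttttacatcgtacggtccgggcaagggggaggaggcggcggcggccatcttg
The ETS letters stood in the windows of Snrpb2 and Lsm5, 2 genes that rose, and in that of Srsf4, a gene that fell, while the window of Hnrnpul1 held CCAAT letters 3 times. Snrpb2 went from 61.8 ± 3.03 to 111 ± 11.8 CPM, and Lsm5, Srsf4 and Hnrnpul1 are described above.

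Other genes of splicing, in 9 lists of 144 genes, moved both ways. Of 142 tested 44 rose and 40 fell, or 36 and 31 with the trend removed. For comparison, 24.6% of all genes tested were called higher and 23.3% lower, and the lists had been chosen with earlier results known. In these lists the trend was removed by the longest coding transcript only. Among the 29 splicing factor genes and 18 list genes given in full, 13 lost the call by that measure and 4 by the median length. A further 6 and 4 changed sign. Most list genes said below to lose the call kept it with the median length. Of 17 further snRNP proteins 7 rose and 2 fell, or 8 and 3 with the trend removed; Snrnp27 and Ppih, of the tri-snRNP, rose by 1.36 and 1.18 and stayed called (0.57 and 0.58). Of 12 minor spliceosome genes 7 rose and the other 5 were not called, against 2 higher and 1 lower with the trend removed, led by Snrnp25 (1.14) and Zcrb1 (0.98), neither called with the trend removed (0.18 and 0.093). Of 12 tested genes of the SMN complex and its partners, which load the Sm ring onto RNA, 8 rose and 1 fell, or 4 and 1 with the trend removed. Gemin7 rose by 1.21 and Gemin6 by 0.80, and of these Gemin7 stayed called (0.41, against 0.12). Of 25 genes of the Prp19 complex and the catalytic steps 9 rose and 4 fell, or 6 and 4 with the trend removed, with Bud31 at 0.89 and Ppil1 at 0.88 (0.048 and 0.37 with the trend removed). Of 11 tested factors of the 3′ splice site 4 rose and 4 fell, or 2 and 4 with the trend removed. Phf5a, for an SF3b subunit whose symbol the rule does not cover, rose by 0.70 (0.30 with the trend removed). Rbm17 rose by 0.43, which was −0.0081, not called, with the trend removed.

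The lists with long mRNAs leaned the other way, as did long mRNAs in the whole table. Of 7511 protein-coding genes of 3000 bp and over 3386 fell and 531 rose, or 1166 and 1491 with the trend removed. The median lengths of the 4 lists below ran from 3435 to 5178 bp. Whether these lists differ from other long mRNAs was not tested. Of 18 SR-related proteins and SR kinases 9 fell and 2 rose, or 8 and 3 with the trend removed. Son, a scaffold of nuclear speckles, fell from 493 ± 53.1 to 276 ± 24.9 CPM (log2 fold change −0.84 ± 0.09, adjusted p = 4.37e-06; −0.22 with the trend removed), and Scaf11 was at −0.57 (−0.14). Of 16 hnRNP-like genes with other symbols 7 fell and 3 rose, or 6 and 4 with the trend removed, with Ptbp3 at −0.49 and Raly at 0.70 (−0.053, not called, and 0.31, called). Of 19 splicing regulators of muscle and other tissues 7 fell and 2 rose, or 2 and 5 with the trend removed; Celf1, which opposes the MBNL proteins, was at −0.49 (called lower) and was at 0.098, not called, with the trend removed (adjusted p = 0.103), and Khdrbs3 rose by 0.60 (0.29). Of 12 partners of the LSm rings in decapping and U6 processing 6 fell and 2 rose, or 2 and 2 with the trend removed. Ddx6, a helicase of the decapping complex, fell from 380.4 ± 34.9 to 219 ± 30.5 CPM (log2 fold change −0.80 ± 0.10, adjusted p = 1.43e-05; −0.37 with the trend removed), and the exonuclease gene Xrn1 was at −0.79 (−0.17, not called).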

How the data were processed

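RNA of cultured muscle stem cells was sequenced in 3 control and 3 EET libraries. The values are raw read counts per gene, as deposited by the authors; FastQC, cutadapt, DESeq2 and the GRCm38 build are named per the submitters' processing notes, while no source used here names the aligner, counter, strand setting or annotation. Genes were filtered with filterByExpr, which left 16097, scaled by TMM and tested with the robust quasi-likelihood test of edgeR 4.0.16 (R 4.3.3, limma 3.58.1), with Benjamini-Hochberg adjustment over all genes tested and a threshold of 0.05. CPM are counts scaled by TMM-normalised library sizes, standard errors come from the fold change and its F statistic, and values are mean ± SD of 3 libraries. For the trend fits, the deviation of each library was regressed by loess (span 0.3) on mRNA length and GC content (GENCODE M21) and entered as offsets. The scripts were tested on simulated data. An exact permutation test of 3 against 3 cannot go below 0.1. Of 19 alternatives, among them DESeq2 1.42.0, the median transcript length was added after seeing the data. Genes given in full are, by family, the 3 with the smallest p and the 2 with the highest CPM, those called at 2-fold or more or in opposite directions, and the 2 smallest p of each list; others are named to account for every gene. The genes and lists were chosen with earlier results of these data known. Promoters are from RefSeq (GRCm38.p6).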

Additional observations from a re-analysis of the deposited data

How the results depend on the processing

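For the 29 splicing factor genes and 18 list genes given in full, 833 values under the alternatives kept direction and side of the threshold, 31 lost and 6 gained a call, and 22 changed sign. Outside these, the sign also changed with the trend removed by the longest transcript for Lsm2, Lsm8, Lsm10, Snrpc, Srsf2, Sf3a1, Sf3a2, Sf3a3, Sf3b2, Sf3b4, Hnrnpa2b1, Hnrnpa3, Hnrnpab, Hnrnpll, Hnrnpm and Hnrnpr. By the median length it changed for Sf3a1, Sf3a2, Sf3b4, Hnrnpa2b1, Hnrnpab, Hnrnpll and Hnrnpf. Among hnRNP genes 5 were called higher, but 3 with RLE scaling, 2 with library totals, 3 without the filter and 8 with the replicate block and trend removed; leaving out 1 library gave 2 to 5 higher and 2 to 4 lower calls. With the trend removed, with and without the replicate block, 7 Sm and snRNP genes (of 12) and 6 LSm genes (of 10) were higher, and lower calls went from 3749 to 2378 in the whole table without the block. Lower calls of SR genes went from 1 to 2 (trend removed by either length, with block and trend, library totals, control 1 and EET 3 left out), of Sm and snRNP genes from 0 to 2 (trend) or 1 (block and trend), of LSm genes from 0 to 1 (block and trend, control 1 and EET 3 left out, median length) and of SF3 genes from 3 to 1 (median length). Among the genes given in full, signs changed for Hnrnpu (0.28 trend, 0.29 block and trend, 0.35 median length), Snrpb (−0.075 in both trend fits), Snrpa (−0.14 in both), Srsf5 (−0.19 in both), Rbm17 (−0.0081 in both), Celf1 (0.098 in both, 0.13 median length), Sf3b1 (0.064) and Sf3b3 (0.045, both median length), Srsf1 (−0.011, library totals), the log2 fold change of Lsm14a (0.017 without EET 1, from −0.077 to 0.017 over the libraries left out) and the log2 fold change of Hnrnpa1 (0.039 without control 1, 0.0031 without control 2, 0.000888 without EET 1, 0.032 with control 1 and EET 3 left out; −0.074 to 0.039 over the single libraries left out); the cause was not tested. Same-numbered libraries did not deviate together (correlations −0.0035, −0.05 and 0.0089). With 3 libraries per group such correlations cannot exclude pairing, so whether the numbers pair the libraries is not known. With the replicate block alone 37 splicing factor genes were higher and 9 lower. The replicate block alone gave 4238 genes called higher in the whole table and 4083 genes called lower in the whole table. Counts under about 20, as for Snrpf and Srsf12, limit what could be detected.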
